A study of Mus musculus with 8 samples.

Results

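The Skint genes encode membrane proteins of mouse epidermis and thymic epithelium that carry immunoglobulin-like domains and are related to the butyrophilins. The family is named for the selection and upkeep of intraepithelial T cells: Skint1 is required in the thymus for the maturation of the gamma delta T cells that later populate the epidermis as dendritic epidermal T cells, which survey keratinocytes and help in wound repair. The roles of the other members, Skint10 among them, are less well known. The genes lie side by side in 1 cluster.

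Members were all genes named Skint1 to Skint10. Of these 10 genes the platform annotation assigned a probe set to Skint10 alone, with 1 probe set (1456508_PM_at) among the 45037 measured. The other 9 genes have no probe set named here by symbol or Entrez number, so no level is given for them, and 0 probe sets were shared between a Skint gene and another gene. The results below are therefore about Skint10, the genes around the cluster and the genes that act with epidermal T cells. The family was selected on the lower Skint10 level in the knockout on these same arrays, so that level and its difference are given as a description.

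The RNA came from interfollicular epidermis, the skin surface layer away from the hair follicles. The mice are labelled as 15 weeks old, with skin treatment begun at 8 weeks of age. All 8 samples, 4 labelled G9a cKO (a conditional knockout of G9a, the histone methyltransferase encoded by Ehmt2) and 4 labelled G9a WT, came from pre-neoplastic skin given DMBA, a carcinogen, at 0.25 mg/ml and TPA, a tumour promoter, at 0.02 mg/ml over 6 weeks. Untreated skin was not analysed here. The sources used here do not give the promoter that drives the deletion or the way the cells were isolated. The comparison asks which genes differ in level when G9a is lost. Each sample was read on its own array, and all values are log2 levels per probe set.

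The arrays matched their labels at 1 of 2 Ehmt2 probe sets. At 1460692_PM_at the cKO arrays read 7.07, 6.72, 6.35 and 6.30 and the WT arrays 9.77, 9.25, 9.69 and 9.26, a difference of -2.88 (SE 0.19, log2; limma adjusted p = 0.000244). At 1426888_PM_at the difference was 0.01 (SE 0.06; limma adjusted p = 0.996), and the deleted part of Ehmt2 is not stated in the labels. The keratinocyte identity of the samples showed in Krt5, Krt14, Krt1 and Krt10, whose group means lay between 12.2 and 12.9 near the top of the scale. On the first principal component WT 4, at 23.5, lay beyond the highest cKO array (cKO 4, at 19.2), and cKO 2, at -10.7, lay near the other WT arrays (-20.6 to -11.4). On the second the groups did not overlap, with cKO arrays from -20.0 to -7.35 and WT arrays from 2.58 to 21.2.

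RefSeq holds a start-site window (250 bases before to 50 after the annotated start, build GRCm38.p6) for each of the 10 listed genes and for Skint11, the remaining gene of the cluster. Those of Skint10 and of the pair most like it are printed here because Skint10 is the member with a measured level. Aligned over the whole window, Skint10 shared 70.3% of its bases with Skint11 and 65.3% with Skint9, against 46.0% to 54.3% with the windows of the other genes. Capitals mark the longest run of letters common to all 3 windows.
Skint10, chr4:112774812-112775111, minus strand: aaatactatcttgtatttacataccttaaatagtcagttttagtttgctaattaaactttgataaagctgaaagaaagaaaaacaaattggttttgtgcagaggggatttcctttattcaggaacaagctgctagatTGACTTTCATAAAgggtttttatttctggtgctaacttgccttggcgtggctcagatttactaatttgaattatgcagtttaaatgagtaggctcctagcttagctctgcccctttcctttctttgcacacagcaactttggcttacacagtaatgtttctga
Skint9, chr4:112433936-112434235, minus strand: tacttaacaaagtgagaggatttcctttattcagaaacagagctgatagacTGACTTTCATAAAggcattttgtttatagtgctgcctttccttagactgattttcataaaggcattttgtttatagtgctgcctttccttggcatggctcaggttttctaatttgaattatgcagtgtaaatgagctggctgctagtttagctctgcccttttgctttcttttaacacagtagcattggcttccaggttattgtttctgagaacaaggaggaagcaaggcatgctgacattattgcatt
Skint11, chr4:114163134-114163433, plus strand: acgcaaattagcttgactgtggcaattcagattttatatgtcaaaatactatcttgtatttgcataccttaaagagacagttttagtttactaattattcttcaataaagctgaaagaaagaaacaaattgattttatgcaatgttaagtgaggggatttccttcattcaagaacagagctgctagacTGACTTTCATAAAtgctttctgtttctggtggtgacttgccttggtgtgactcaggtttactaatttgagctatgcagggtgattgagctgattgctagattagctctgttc
The shared run, TGACTTTCATAAA, is 13 bases long and begins 113 bases before the start site of Skint10, 199 before that of Skint9 and 62 before that of Skint11. Searched on both strands, it occurred in 3 of 32851 windows in the table, which are those 3. Compared in pairs, the longest run was 20 bases for Skint10 with Skint11 and 19 for Skint10 with Skint9.

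The cluster holds further look-alikes. Skint5 and Skint6 shared 89.7% of their windows, the highest share of 66 pairs, while the median pair shared 52.0%. Unrelated windows were not aligned, so the share that they would have is not known. Skint7 and Skint8 shared 37% of the window but 92.5% of the 120 bases that were paired, with a common run of 51 bases. The AP-1 motif TGANTCA, the site through which TPA is known to act on many promoters, occurred on either strand in 7.81% of all windows and in 1 of the 12 Skint windows (Skint4 has 2), that of Skint11. The grainyhead motif AACCNGTT, of an epidermal transcription factor family, occurred on either strand in 2.09% of all windows and in that of Skint8. The letters TATAAA, of the TATA box, were present on either strand in 13.6% of all windows and in those of 8 Skint genes. Skint9 and Skint11 were among these 8 and Skint10 was not. In the printed windows of Skint9 and Skint11 the letters stand only on the opposite strand, as TTTATA. None of these motifs contains another, and a missing match says only that the letters are not in this window.

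Skint10 stood lower in all 4 knockout arrays. It read 5.37, 5.24, 5.78 and 6.16 in cKO 1 to 4 and 7.07, 6.42, 7.34 and 7.00 in WT 1 to 4. The groups did not overlap: the highest cKO array, cKO 4, lay 0.26 below the lowest WT array, WT 2. The means were 5.64 ± 0.42 in cKO and 6.96 ± 0.39 in WT (log2, SD, n = 4 each), a difference of -1.32 (SE 0.23), which is 2.50-fold. Whether the lower level reflects fewer cells that make the transcript or less of it per cell cannot be told apart in bulk RNA. The Skint genes are close relatives, and the share of this signal that comes from transcripts of other members was not tested.

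**Figure D1:**
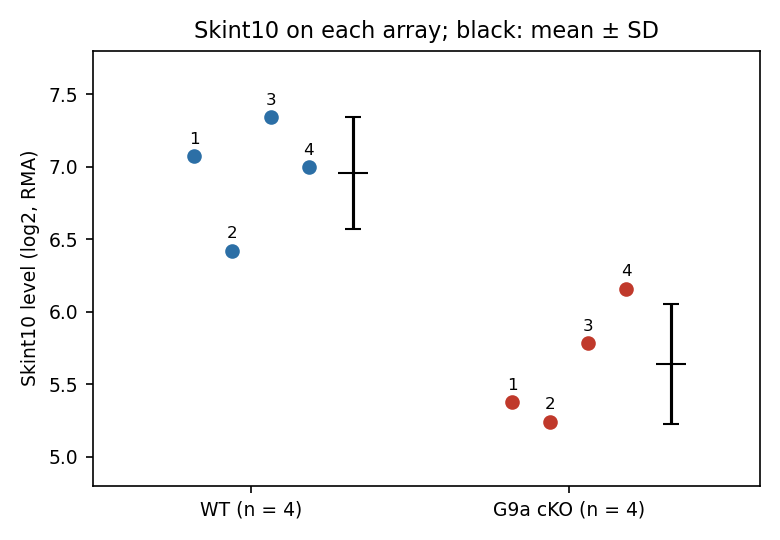
Log2 level of Skint10 (vertical axis) on each of 4 WT (blue) and 4 cKO (red) arrays, numbered by replicate, with the group mean ± SD in black. The cKO arrays lie between 5.24 and 6.16 and the WT arrays between 6.42 and 7.34.

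In the limma fit over all probe sets, 0.466% of probe sets passed the threshold (Benjamini-Hochberg adjusted p under 0.05) and 0.0733% passed it with a lower level in cKO. Skint10 did not pass: 0 of 1 Skint probe sets were called, and 1 of 1 had an unadjusted limma p under 0.05, as had 7.98% of all probe sets. Its groups did not overlap, with cKO below WT, as was the case for 1.72% of all probe sets. A difference of -1 or lower was found at 0.0178% of probe sets, which are 8, Skint10 among them. Because the contrast led to the choice of the family, nothing is read from these shares.

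In order of level the arrays ran cKO 2, cKO 1, cKO 3, cKO 4, WT 2, WT 4, WT 1 and WT 3. The step from cKO 4 to WT 2 was smaller than the SD of either group. The WT spread came largely from WT 2, which stood 0.54 below its group mean. The difference ranged from -1.50 to -1.19 when single arrays were left out, and was -1.17 (SE 0.26) without both cKO 2 and WT 4. The call itself moved with the setting: Skint10 passed without WT 2 and without cKO 4 and did not pass without any of the other 6 arrays.

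Both measured genes nearest to the cluster on its Skint8 side stood higher in cKO. The 5 measured genes on each side hold 21 probe sets, of which 3 rose, 0 fell and 18 did not pass, with a median difference of 0.04 against 0.01 over all probe sets. Of all probe sets 0.393% passed with a higher level in cKO. The 3 that rose belong to Slc5a9, a sodium-coupled sugar transporter, and Spata6, a gene known from the connecting piece of sperm.

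Slc5a9, next to Skint8, read 6.28, 6.13, 6.51 and 6.26 in cKO and 5.35, 5.39, 5.48 and 5.62 in WT at 1439494_PM_at. The cKO arrays all lay above the WT arrays, and the difference was 0.83 (SE 0.09; limma adjusted p = 0.00371). At 1452136_PM_at it read 6.78, 6.88, 7.05 and 7.20 in cKO and 6.20, 6.54, 6.45 and 6.32 in WT. There the difference was 0.60 (SE 0.10; limma adjusted p = 0.0491), a call lost under 11 of 17 alternatives (highest limma adjusted p = 0.185). A further probe set, 1426634_PM_at, stood at 0.52 (SE 0.13; limma adjusted p = 0.178) and did not pass.

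Spata6, the next gene outward, read 5.88, 5.92, 5.95 and 5.81 in cKO and 5.33, 5.41, 5.33 and 5.45 in WT at 1438023_PM_at. The difference was 0.51 (SE 0.05; limma adjusted p = 0.00199), with all cKO arrays above all WT arrays. Its other probe sets stood at 0.31 (SE 0.05; limma adjusted p = 0.0532) and 0.23 (SE 0.09; limma adjusted p = 0.520). The calls of 1439494_PM_at and 1438023_PM_at held under each alternative that tested them, with a highest limma adjusted p of 0.0216 and 0.0210.

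Beyond Spata6 the probe sets of Bend5, Agbl4, a tubulin-modifying carboxypeptidase, and Elavl4, a neuronal RNA-binding protein, stood between -0.06 and 0.04. On the far side of the cluster none passed in the fit over all 8 arrays. Trabd2b, a membrane protease that acts on Wnt proteins and the nearest measured gene there, stood at -0.30 (SE 0.07; limma adjusted p = 0.190) at 1 probe set and at -0.05 at the other. The first of these passed, lower in cKO, with array weights and without WT 2. The forkhead genes Foxd2 and Foxe3, the nucleotide kinase gene Cmpk1 and 9130410C08Rik stood between -0.10 and 0.07. The higher levels on the Skint8 side and the lower level of Skint10 were measured on separate genes, and of the Skint genes between and beyond them no level is given.

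**Figure D2:**
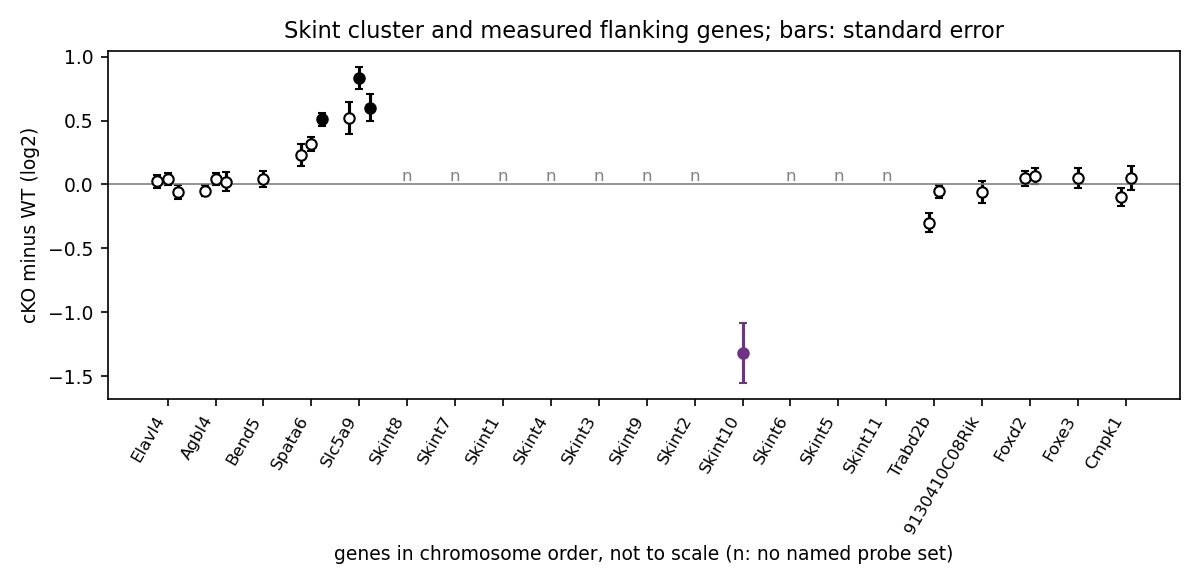
Difference in log2 level, cKO minus WT (vertical axis), for each probe set of the genes of the Skint cluster and of 5 measured genes on either side, in chromosome order and not to scale; bars are standard errors, filled black points passed the limma test, Skint10 is purple and "n" marks genes with no named probe set. Slc5a9 and Spata6 stand above 0 and Skint10 at -1.32.

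Among measured genes of the cells that the family is known to serve none passed. Of 33 listed genes of dendritic epidermal T cells 26 were measured, with 38 probe sets. Of these 0 passed in either direction in the limma fit and 0 had an unadjusted p under 0.05. Over all probe sets these shares were 0.466% and 7.98%. Since so few pass at all, 0 passing of 38 is not read as a result. The median difference of the list was 0.01. Trdc, the constant gene of the delta chain, and the listed gamma and delta receptor genes have no probe set named here. Cd3e, of the T cell receptor complex, read 4.28 ± 0.13 in cKO and 4.33 ± 0.06 in WT, and Cd3g, of the same complex, 5.18 ± 0.04 and 5.10 ± 0.13 (log2, SD, n = 4 each). The largest differences in the list were those of Thy1, a surface protein of T cells and other cells, at 0.20 (SE 0.09; limma adjusted p = 0.653), and of Sema4d, a semaphorin, at -0.17 (SE 0.14; limma adjusted p = 0.887). The summed level of the list (linear scale) ran from 2860 to 3355 in cKO and from 2788 to 3295 in WT. That sum rests largely on its highest probe sets, above all Thy1, with log2 means of 10.43 in cKO and 10.23 in WT. Only 5 of the 38 probe sets belong to the upper 50% of all probe sets by mean level. The deposited values carry no detection calls, so that low readings such as those of Cd3e are not shown to lie above background.

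Among keratinocyte genes for signals to these T cells none was called, but 9 probe sets had an unadjusted limma p under 0.05. Of 27 listed 19 were measured, with 37 probe sets: 0 passed, and the median difference was -0.02. The 9 are a larger share of the 37 than the 7.98% over all probe sets. The list was chosen with earlier results of these data known, so nothing is read from that share. Tslp, an epithelial cytokine, read 5.56 to 5.88 in cKO and 6.05 to 6.49 in WT, so that the groups did not overlap, and its difference was -0.61 (SE 0.11; limma adjusted p = 0.0545). It passed under 6 of the alternatives. Cxcl14, a chemokine made by keratinocytes, stood at 0.32 (SE 0.06; limma adjusted p = 0.0712) at 1 probe set, with groups that did not overlap, and at 0.21 at the other, where they did. The first of these passed with array weights, without cKO 1 and at a threshold of 0.10. Has3, a hyaluronan synthase, stood at -0.50 (SE 0.20; limma adjusted p = 0.536), with overlapping groups. Cxadr, the keratinocyte ligand of the T cell receptor partner JAML, was within 0.13 of 0 at its 5 probe sets, and Plxnb2, the receptor of Sema4d, stood at -0.03 (SE 0.06); Cxcl14, Cxadr and Plxnb2 were chosen after their values were seen.

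The relatives of the family were likewise not called. Of 18 listed butyrophilin and B7 genes 13 were measured, with 20 probe sets, of which 0 passed (limma; 2 with an unadjusted p under 0.05), and the median difference was 0.02. Cd80, a costimulator of T cells, stood at 0.30 (SE 0.15; limma adjusted p = 0.693) and Icosl, the ligand of ICOS, at -0.23 (SE 0.14; limma adjusted p = 0.785), each at the probe set with the largest difference. Several epithelial butyrophilin-like genes, Btnl1, Btnl4 and Btnl6, have no probe set named here. Only 4 of the 20 probe sets belong to the upper 50% of all probe sets by mean level, and the low readings are not shown to lie above background.

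**Figure D3:**
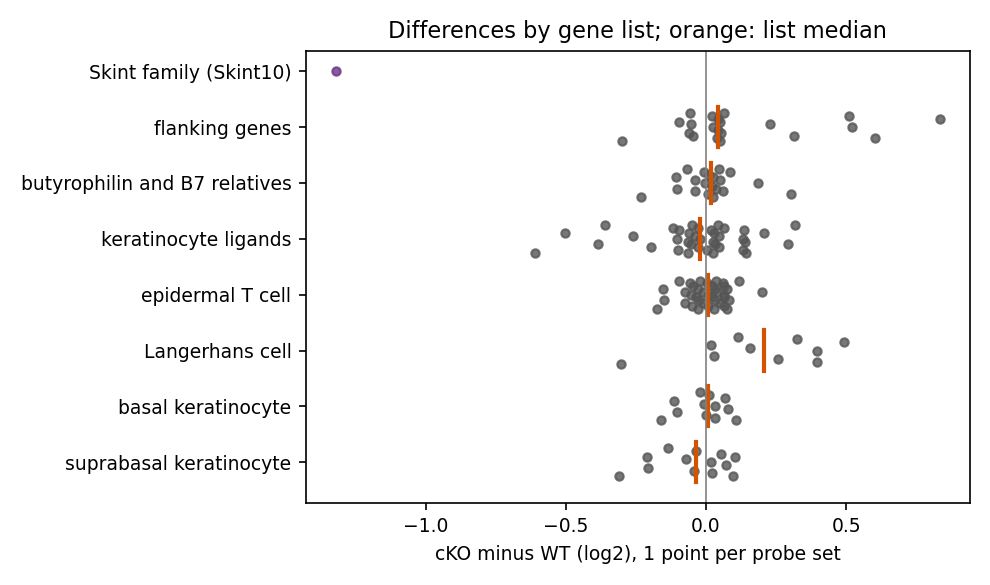
Difference in log2 level, cKO minus WT (horizontal axis), of each probe set in 7 gene lists and of Skint10, with list medians as orange bars. The medians lie between -0.03 and 0.21, and Skint10 stands at -1.32.

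Keratinocyte layer markers differed little between the groups. Of 12 basal and 13 suprabasal probe sets 0 passed in the limma fit and 0 had an unadjusted p under 0.05. The medians were 0.01 and -0.03. In the basal list Trp63 differed most, at -0.16 (SE 0.22, limma adjusted p = 0.958) at 1 probe set. Itga6 followed, at -0.11 (SE 0.07, limma adjusted p = 0.816). Filaggrin, Flg, of the granular layer, stood at -0.31 (SE 0.14; limma adjusted p = 0.634) and Dsc1, a desmosomal cadherin, at -0.21 (SE 0.16; limma adjusted p = 0.865). The Langerhans cell list had 0 of 10 passing (limma). Cd74 stood at 0.49 (SE 0.32, limma adjusted p = 0.814) and H2-Aa at 0.40 (SE 0.25, limma adjusted p = 0.804), each at the probe set with the largest difference. The 1 with an unadjusted limma p under 0.05 was Mfge8, at -0.30 (SE 0.10, limma adjusted p = 0.415). Mfge8 passed with array weights and was chosen after its values were seen. The median of the list was 0.21. That median was 0.02 without WT 4, 0.08 without cKO 2, -0.06 without both, an alternative chosen after seeing the data, 0.12 without cKO 1, 0.36 without WT 3 and 0.39 without cKO 4. It was 0.02 with array weights. Some probe set names (_x_at, _s_at or _a_at) mark probes that may match several transcripts, of the same gene or of other genes. An alternative left out all of these without telling them apart. Only 1 of the 10 was then left, that of Cd207, at 0.03, so this alternative cannot judge the list. The summed level of the list ran from 2139 to 3849 in cKO and from 1405 to 3220 in WT. That sum rests largely on 1 probe set of H2-Ab1, with log2 means of 10.39 in cKO and 10.00 in WT. The part of this list in the level of Skint10 was not tested. Cd207, which defines these cells, read 4.65 ± 0.12 in cKO and 4.62 ± 0.08 in WT. The lists of fibroblast, melanocyte, endothelial, muscle, hair follicle and sebaceous markers, with 32 probe sets together, had 0 passing (limma; 3 with an unadjusted p under 0.05) and medians of -0.04 to 0.09.

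Variation within the groups does not use the comparison between them. After each group's mean was removed, the named genes most like Skint10 over the 8 arrays were Septin7, a cytoskeletal GTPase (Pearson r = 0.996, Spearman rho = 0.98), Myo9a, an unconventional myosin (r = 0.989, rho = 1.00), and Dsg1a, the desmosomal cadherin of the suprabasal layers (r = 0.94, rho = 0.95). They are the highest of all 1-gene probe sets, so high values follow from the choice, and no p is given. Without WT 2 and cKO 2, the arrays farthest from the median of the Skint10 deviations, r was 0.993, 0.972 and 0.888. That kept cKO 4, which stood 0.52 above its group mean and so farther from it than cKO 2, at -0.40. With group means kept, r was 0.07, 0.71 and 0.80. Septin7 read 9.32 ± 0.06 in cKO and 9.27 ± 0.07 in WT, and Myo9a 4.11 ± 0.04 and 4.13 ± 0.05 (log2, SD, n = 4 each). The low readings of Myo9a, like those of Cd3e, are not shown to lie above background.

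The level of Dsg1a was 10.17 ± 0.16 in cKO and 10.30 ± 0.13 in WT, a difference of -0.13 (SE 0.09; limma adjusted p = 0.834). Its array-to-array swings were about as wide as that difference, and those of Septin7 and Myo9a were narrower. Of the lists, the suprabasal genes had a median within-group r with Skint10 of 0.61 (13 probe sets, from -0.68 for Lor to 0.94 for Dsg1a), against -0.15 over all probe sets. Ivl, involucrin of the cornified envelope, gave 0.79 and 0.80 at its 2 probe sets and Sbsn, suprabasin, 0.47 to 0.77. Hair follicle genes had a median of 0.49 (6 probe sets, from -0.76 to 0.87) and sebaceous genes one of 0.42 (5 probe sets). The median was 0.14 for muscle genes and -0.35 for basal genes (12 probe sets, from -0.71 to 0.62). For epidermal T cell genes it was -0.25 (38 probe sets, from -0.94 for Thy1 to 0.71 for Cd3e). The medians of the other marker lists lay between -0.47 and -0.28. These coefficients are descriptions over 8 arrays whose probe sets share the same hybridisations.

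**Figure D4:**
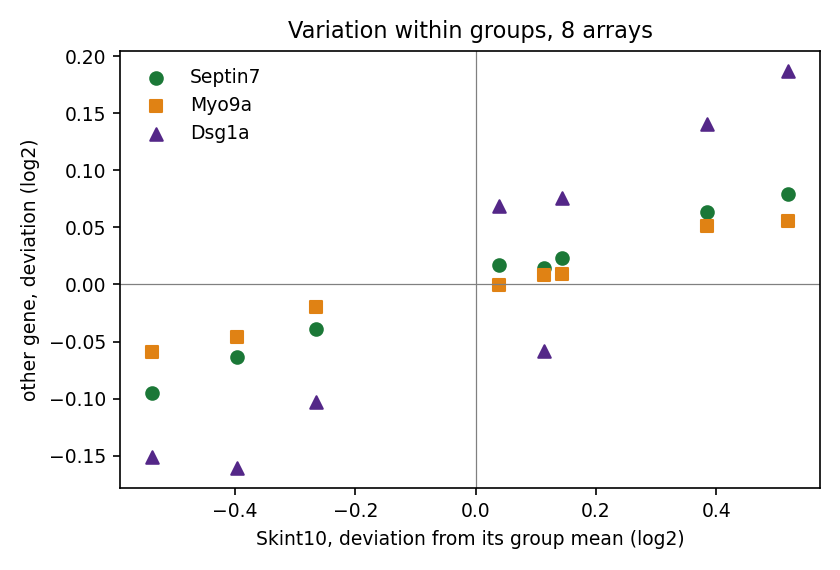
Deviation of Septin7, Myo9a and Dsg1a from their group means (vertical axis, log2) against that of Skint10 (horizontal axis, log2) on 8 arrays, 1 point per array and gene. The points of all 3 run upward with Skint10, over a wider range for Dsg1a than for the others.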

How the data were processed

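Labelled RNA of 8 samples was read on 1-colour arrays; 25 ng of RNA were amplified in 17 cycles, per the labels' protocols. The authors used RMA, as the submitters' processing notes name it (version and settings not stated there), and deposited values taken here as log2 expression per probe set, since they run from 3.06 to 13.0. RMA quantile-normalises arrays, so a shift of all genes together cannot be seen. Of 45141 rows 104 control probe sets were left out. The annotation names 28898 of the 45037 others with 1 gene, 551 with several and 15588 with none; a GRCm38.p6 gene table, matched by Entrez number for 28689 of these, gave symbols and gene order.

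The 2 genotypes were compared by limma 3.58.1 (R 4.3.3), each probe set separately, two-sided, threshold 0.05 after Benjamini-Hochberg adjustment over 45037 probe sets; the count of arrays, 4 per group, limits the precision. The procedure was tested on simulated data. The members and lists were chosen with earlier results of these data known. Named were, per list described, probe sets past the threshold (up to 4), otherwise the 2 with the largest difference, defining markers, and the 3 genes most like Skint10. The labels do not say that replicates are separate animals, so the p-values reflect only how these samples spread, which may be technical. Windows were aligned with Biopython 1.88 (match 2, mismatch -1, gap -4 and -1, free ends). Alternatives were a second quantile normalisation, median centring, a replicate block, a variance trend, array weights and the upper 50% by mean. Further ones were no _x_at, _s_at or _a_at probe sets, a threshold of 0.10 and leaving out each array. Leaving out cKO 2 with WT 4 was added after seeing the data.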

Additional observations from a re-analysis of the deposited data

Results flagged for a closer look

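In 82 groups of 4 arrays (41 named probe sets), 4 had an array farther from the others than Dixon's 95% critical value allows; chance gives about 1 in 20. Neither group of Skint10 did, with gaps of 0.411 of the range in cKO and 0.626 in WT. The 4 arrays were WT 1 for Tslp, at 6.05 (gap 0.907 of the range), WT 4 for Col3a1, a fibroblast collagen, at 4.41 (0.889), WT 4 for Krt10, at 12.2 (0.854), and cKO 4 for 1 probe set of Trp63, the master regulator of basal keratinocytes, at 7.51 (0.837).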

How the results depend on the processing

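The difference of Skint10 ran from -1.50 to -1.19 without single arrays (SE 0.21 to 0.27). Since all cKO arrays lay below all WT arrays, leaving out arrays could change neither its sign nor the lack of overlap. Median centring and a second quantile normalisation gave new values, with differences of -1.34 and -1.33 and groups that did not overlap. The other alternatives used the same Skint10 values, so the sign could not change in them either. The count of Skint probe sets past the threshold, 0 of 1, became 1 with array weights, with a variance trend, with a threshold of 0.10 and with the replicate block, and ran from 0 to 1 without single arrays. The ligand list went from 0 to 1 with median centring, a variance trend or a second quantile normalisation, to 2 with array weights or a threshold of 0.10, and ran from 0 to 2 without single arrays. The flanking genes went from 3 to 6 with array weights and ran from 2 to 3 without single arrays. The Langerhans cell list went from 0 to 1 with array weights, and the hair follicle list from 0 to 1 without cKO 2 and WT 4. The causes were not tested. Over all probe sets 210 calls became 758 with array weights, 343 at 0.10, 132 in the upper 50%, 657 without cKO 2 and WT 4, and 104 to 356 without single arrays.

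The replicate block gave Skint10 -1.32 (SE 0.13) and 175 calls over all probe sets. Same-numbered arrays did not consistently deviate together: correlations of their deviations were 0.13, 0.22, -0.62 and 0.37 for numbers 1 to 4. Values of mixed sign cannot settle whether the numbers mark pairs, and the numbers are taken as names. Likeness between Skint probe sets was not run, since there is 1.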
